A study of Mus musculus with 12 samples.

Results

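Tmem176a and Tmem176b are neighbouring mouse genes for a pair of related channel proteins. They were followed through 12 RNA-seq libraries of T helper 17 (Th17) cells. They are 2 of the 29522 gene identifiers in the expression files, and both were matched by symbol to 1 Ensembl identifier each. The pair was chosen by its measured levels over the 4 treatment groups, so those levels are described here without a test. Naive CD4+ T cells had been isolated magnetically from the spleen of wild-type (WT) C57BL/6J mice, cultured in RPMI medium with the CytoBox Th17 supplement, and activated through CD3 and CD28. All groups shared that strain, genotype and culture. There were 4 groups of 3 libraries: vehicle alone, 200 uM ILA, 0.5 uM GSK805, and the combination of ILA and GSK805 at those doses. The labels do not spell out ILA, which is taken to be indole-3-lactic acid, a tryptophan metabolite of gut bacteria. GSK805 is a small molecule that inhibits Th17 differentiation. The replicates are called biological, but no animals or culture times are named, so p-values reflect only how far these samples spread, which may be technical.

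TMEM176A and TMEM176B are multi-pass membrane proteins related to the MS4A family, to which the B cell antigen CD20 belongs. They form cation channels in intracellular membranes of the Golgi and endolysosomal system. In mouse, the immune cells known for expressing both are Th17 cells and related lymphocytes, and dendritic cells and macrophages, in which TMEM176B restrains inflammasome activity.

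The genes are arranged head to head on chromosome 6 of the build GRCm38. Tmem176b (ENSMUSG00000029810) lies on the minus strand at chr6:48833818-48841496. Tmem176a (ENSMUSG00000023367) lies on the plus strand at chr6:48840919-48847071. In the GENCODE annotation the gene bodies overlap by 578 bases and their exons by 81 bases, which is 2.13% of the exon length of Tmem176a and 3.42% of that of Tmem176b. The sources used here give no strand handling, so reads from those 81 bases cannot be assigned to either gene. RefSeq gives 2 start-site windows for Tmem176a and 3 for Tmem176b, each 300 bases long. The first windows of both genes are printed because they show how closely the divergent starts are packed. They run from 250 bases before to 50 bases after the start, in GRCm38.p6, at chr6:48841233-48841532 on the plus strand and chr6:48841088-48841387 on the minus strand. Each is written 5′ to 3′ on its own gene's strand, and capitals mark the 155 bases that both windows hold.
Tmem176a: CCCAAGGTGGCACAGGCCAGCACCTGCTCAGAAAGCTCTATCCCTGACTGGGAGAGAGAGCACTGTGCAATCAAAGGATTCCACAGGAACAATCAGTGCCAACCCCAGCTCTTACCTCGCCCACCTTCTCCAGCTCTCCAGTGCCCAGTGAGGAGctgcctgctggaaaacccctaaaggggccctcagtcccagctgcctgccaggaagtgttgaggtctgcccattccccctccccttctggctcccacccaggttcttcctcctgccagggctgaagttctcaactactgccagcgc
Tmem176b: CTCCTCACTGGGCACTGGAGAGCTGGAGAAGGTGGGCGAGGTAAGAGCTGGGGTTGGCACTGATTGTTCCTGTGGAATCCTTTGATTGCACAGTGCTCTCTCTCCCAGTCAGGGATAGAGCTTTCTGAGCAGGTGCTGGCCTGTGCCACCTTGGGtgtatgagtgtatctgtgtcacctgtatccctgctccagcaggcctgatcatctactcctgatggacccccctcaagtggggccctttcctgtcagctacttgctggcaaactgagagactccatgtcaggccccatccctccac
The first start sites lie 346 bases apart, at positions 48841483 and 48841137. The other starts are at 48841656 for Tmem176a and at 48841374 and 48840988 for Tmem176b. Of these, the Tmem176b start at 48841374 lies closer to the first start of Tmem176a. These windows have a GC content of 59.7% and 56.7%, against a median of 52.7% over all RefSeq windows of the same length.

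The 5 windows of the pair were searched on both strands for 5 motifs. The nuclear receptor half-site AGGTCA occurred in none of them, and it occurs in 16.3% of 32851 windows in the genome. The variant GGGTCA occurred once, in the third Tmem176b window, where its first base lies 75 bases before the start, and 13.7% of all windows hold it. That site is shown because it is the single match among all searches, at chr6:48841048-48841073 on the minus strand, with the motif in capitals.
Tmem176b site: cctctctctgGGGTCAgctttaagcc
The core bound by the aryl hydrocarbon receptor, GCGTG (32.4% of all windows), the STAT motif TTCNNNGAA (8.3%) and the AP-1 motif TGANTCA (7.81%) had no match. A match is a description of letters, and an absent match says only that these letters are not in these windows.

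Both genes were expressed in every library, in the same order of groups: lowest with GSK805, then GSK805 with ILA, then vehicle, and highest with ILA. Expression is given as FPKM, a read level scaled to gene length and library size, so that levels of different genes can be set side by side. Tmem176b stood at 14.02, 15.44 and 15.22 FPKM in vehicle replicates 1 to 3, and at 29.21, 28.59 and 26.85 FPKM with ILA. It stood at 6.736, 6.602 and 5.742 FPKM with GSK805, and at 11.17, 10.93 and 10.92 FPKM with both compounds. No library of one group overlapped those of another. The gap between neighbouring groups in the order was wider than the range within any group. The share of all tested genes whose groups stay apart in this way was not counted. Against vehicle, 57.9% of tested genes had a limma adjusted p below 0.05 with ILA, 22.8% with GSK805 and 52.1% with both compounds. The group means were 14.9 ± 0.76 FPKM with vehicle, 28.2 ± 1.22 FPKM with ILA, 6.36 ± 0.539 FPKM with GSK805 and 11 ± 0.14 FPKM with both (SD, n = 3).

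Tmem176a stood at 10.61, 13.29 and 12.27 FPKM with vehicle and at 17.67, 19.13 and 16.02 FPKM with ILA. It stood at 5.234, 4.242 and 4.548 FPKM with GSK805, and at 6.695, 7.213 and 6.96 FPKM with both compounds. Its groups did not overlap either, although the highest vehicle library and the lowest ILA library came closer than in Tmem176b. How many tested genes separate in this way was not counted, so the separation describes the pair only. The group means were 12.1 ± 1.35 FPKM with vehicle, 17.6 ± 1.56 FPKM with ILA, 4.67 ± 0.508 FPKM with GSK805 and 6.96 ± 0.259 FPKM with both (SD, n = 3). In every library Tmem176a was below Tmem176b.

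**Figure D1:**
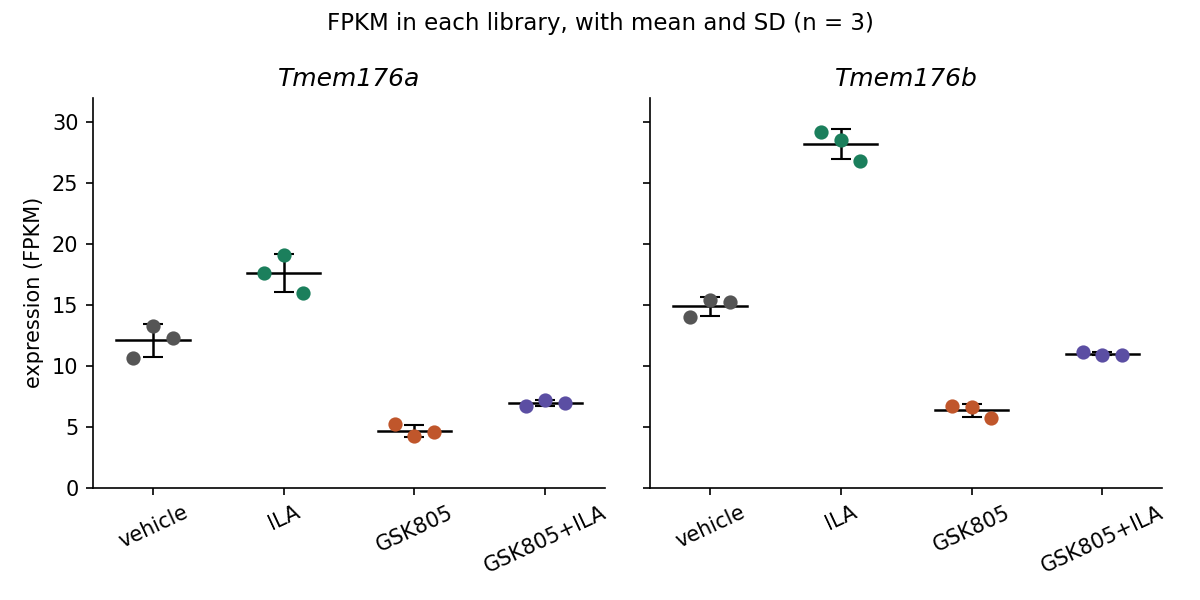
Expression of Tmem176a (left) and Tmem176b (right) in FPKM, from 0, in the 4 groups. Points are single libraries and bars the mean and SD of 3 libraries. In both genes the 3 libraries of each group stay apart from those of the other groups, and ILA is highest and GSK805 lowest. How many other genes separate in this way was not counted.

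Reads recovered from the FPKM values ran from 351 in GSK805 replicate 2 to 1455 in ILA replicate 1 for Tmem176a, and from 286 to 1497 for Tmem176b. Whole libraries held 17.8 to 23.4 M reads in genes. The coefficient of variation between replicates was 3.72% to 11.2% for Tmem176a, where counting error alone gives 2.77% to 5.04%. For Tmem176b it was 1.27% to 8.48%, with 2.77% to 5.48% from counting. In vehicle cells 65% of the 13511 tested genes had a lower mean level than Tmem176a and 70.5% a lower one than Tmem176b. With GSK805 these shares were 39.3% and 47%.

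Both genes lay furthest below vehicle with GSK805. Differences are given on the scale of log2(FPKM + 1), which understates changes of low values. Tmem176a differed between GSK805 and vehicle by -1.20 (SE 0.09), and its mean FPKM was 38.8% of the vehicle level. Tmem176b differed by -1.11 (SE 0.06) and was at 42.7% of the vehicle level. Of the 13511 tested genes, 38 had a more negative difference in this comparison than Tmem176a and 47 than Tmem176b. The median difference over all tested genes was 0.05.

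With ILA the pair lay above vehicle, Tmem176b by more than Tmem176a. Tmem176b differed by 0.88 (SE 0.06) between ILA and vehicle, a ratio of 1.89 in FPKM. Tmem176a differed by 0.51 (SE 0.09), a ratio of 1.46. In that comparison 7.45% of tested genes had a higher difference than Tmem176b and 18.6% a higher one than Tmem176a, so their ILA differences were less far out among all genes than their GSK805 differences. The median over all tested genes was 0.06. Centring each library on its median gene shifts ILA against vehicle by 0.135, GSK805 by 0.0775 and both compounds by 0.137 on the log2 scale. With that centring the ILA differences came to 0.74 for Tmem176b and 0.38 for Tmem176a, with the same direction.

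With both compounds the pair lay between the single treatments. Against vehicle, GSK805 with ILA differed by -0.71 (SE 0.09) in Tmem176a and by -0.40 (SE 0.06) in Tmem176b, which left them at 57.7% and 73.9% of the vehicle level. Against GSK805 alone the differences were 0.49 (SE 0.09) and 0.71 (SE 0.06). Against ILA alone they were -1.22 (SE 0.09) and -1.28 (SE 0.06). These comparisons share libraries and are values set side by side. If the FPKM ratios of the single treatments to vehicle multiplied, Tmem176a would stand at 6.83 FPKM and Tmem176b at 12.1 FPKM. The measured means were 1.02 and 0.913 times those levels. The interaction, the ILA difference under GSK805 minus that without it, was -0.02 (SE 0.13) for Tmem176a and -0.17 (SE 0.08) for Tmem176b.

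The balance of the pair differed between cultures with and without ILA. The ratio of Tmem176a to Tmem176b in FPKM was 0.757, 0.861 and 0.806 in the vehicle libraries and 0.605, 0.669 and 0.597 with ILA. It was 0.777, 0.642 and 0.792 with GSK805, and 0.6, 0.66 and 0.638 with both compounds. All ILA and all combined libraries lay below all vehicle libraries, while GSK805 replicate 2 lay within the range of the cultures with ILA. The group means were 0.808 ± 0.0522 with vehicle, 0.624 ± 0.0397 with ILA, 0.737 ± 0.0824 with GSK805 and 0.632 ± 0.0304 with both (SD, n = 3). Across the 12 libraries the log2 levels of the pair had a Pearson correlation of 0.973, and their deviations from the group means one of 0.574. The first value is set mostly by the 4 groups, and both genes share each library's depth and scaling.

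**Figure D2:**
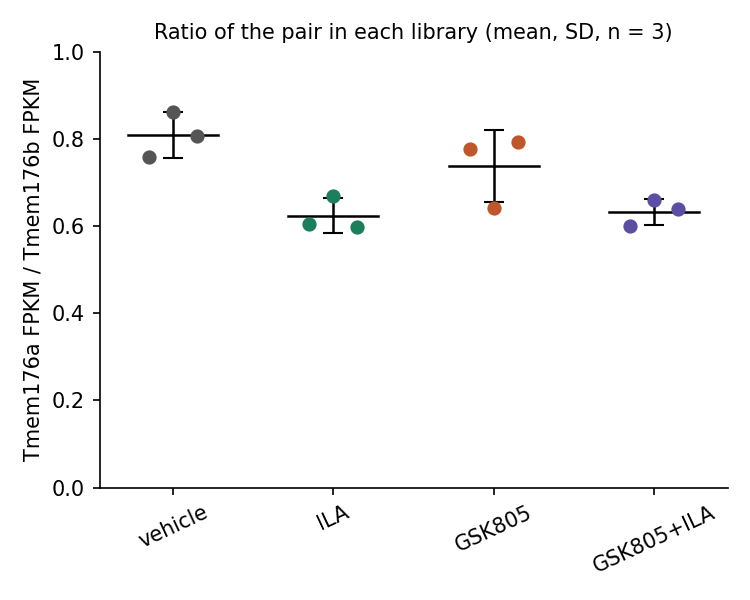
Ratio of Tmem176a to Tmem176b FPKM in each library, from 0, with the mean and SD of 3 libraries per group. The ILA and combined libraries sit between 0.597 and 0.669, below the vehicle libraries at 0.757 to 0.861.

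The Th17 programme, 21 genes for the cytokines, receptors and transcription factors of these cells, was split by ILA and lowered in large part by GSK805. With ILA 10 of the 21 rose, 10 fell and 1 (Batf) did not pass, with a median log2 difference of -0.08; over all tested genes 57.9% were called, 33.9% higher and 24% lower. With GSK805 2 rose (Maf and Ahr), 11 fell and 8 did not pass, with a median of -0.41, against 22.8% called over all genes, 15.7% higher and 7.08% lower. With both compounds 4 rose (Maf, Abcb1a, Ahr and Stat3), 14 fell and 3 did not pass, with a median of -0.79, against 52.1% called, 31.8% higher and 20.3% lower. Centred on the median gene, the counts were 0 higher and 12 lower with GSK805, and 2 and 16 with both.

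The cytokine genes Il17a, Il17f and Il21 were lower in both single treatments, unlike the pair. Il17a, which encodes interleukin-17A, had mean levels of 756 ± 107 FPKM with vehicle, 159 ± 11.5 with ILA, 109 ± 12.2 with GSK805 and 40.1 ± 4.75 with both (SD, n = 3). Its log2 differences from vehicle were -2.23, -2.78 and -4.20 (SE 0.12 each, limma adjusted p = 6.42e-08, 9.66e-07 and 2.73e-09). Il17f, the gene of the related cytokine interleukin-17F, had differences of -1.16, -1.21 and -2.14 (adjusted p = 1.14e-07, 3.4e-06 and 3.78e-09). Il21, a cytokine gene of helper T cells, had differences of -1.80, -1.07 and -2.16, with adjusted p from 5.82e-09 to 1.2e-05.

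Il23r and Ccl20 also fell in all 3 comparisons. Il23r, the gene of the interleukin-23 receptor subunit that sustains Th17 cells, had differences of -1.68, -2.39 and -2.82 (limma adjusted p = 1.12e-06, 3.17e-06 and 3.39e-08). Ccl20, which encodes the ligand of the chemokine receptor CCR6, had differences of -0.56, -1.82 and -2.24 (adjusted p = 0.0234, 1.16e-04 and 2.99e-06). Its ILA call was lost without vehicle replicate 2 or 3 or ILA replicate 3, with adjusted p of 0.0559, 0.0809 and 0.0633, in a range of 2.55e-05 to 0.0809 over the alternatives.

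Maf, the gene of the transcription factor c-Maf, rose with ILA and with both compounds. Its differences were 1.70 with ILA, 0.29 with GSK805 and 1.24 with both (limma adjusted p = 1.25e-08, 0.0184 and 1.51e-07). The GSK805 call was lost without vehicle replicate 1 (0.059) or GSK805 replicate 1 or 2 (0.0724 and 0.0678), in a range of 5.4e-04 to 0.0744 over the alternatives.

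A rise with ILA and a fall with GSK805 and with both compounds were called in 3 genes of the list. These are the directions seen in the pair, and the genes were named after their values were seen. The share of all tested genes with the same 3 calls was not counted. Il22, which encodes a cytokine that acts on epithelial cells, had means of 2.97 ± 1.58 FPKM with vehicle, 6.51 ± 1.8 with ILA, 0.414 ± 0.162 with GSK805 and 0.667 ± 0.286 with both (SD, n = 3). Its differences were 0.97, -1.41 and -1.18 (limma adjusted p = 0.0113, 0.00459 and 0.00422), but ILA replicate 3, at 4.443 FPKM, lay below vehicle replicate 3, at 4.587 FPKM. Ltb4r1, a receptor gene for leukotriene B4, had differences of 0.40, -1.01 and -0.92 (adjusted p = 0.0446, 0.00101 and 4.36e-04). Its ILA call was lost in 11 of 20 alternatives, with adjusted p up to 0.277, among them the omission of any of the 3 vehicle libraries, ILA replicate 2 or 3, GSK805 replicate 1 or combined replicate 1. Hif1a, which encodes the hypoxia-induced factor HIF-1α, had differences of 0.30, -0.27 and -0.21 (adjusted p = 8.27e-05, 9.9e-04 and 0.00139).

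**Figure D3:**
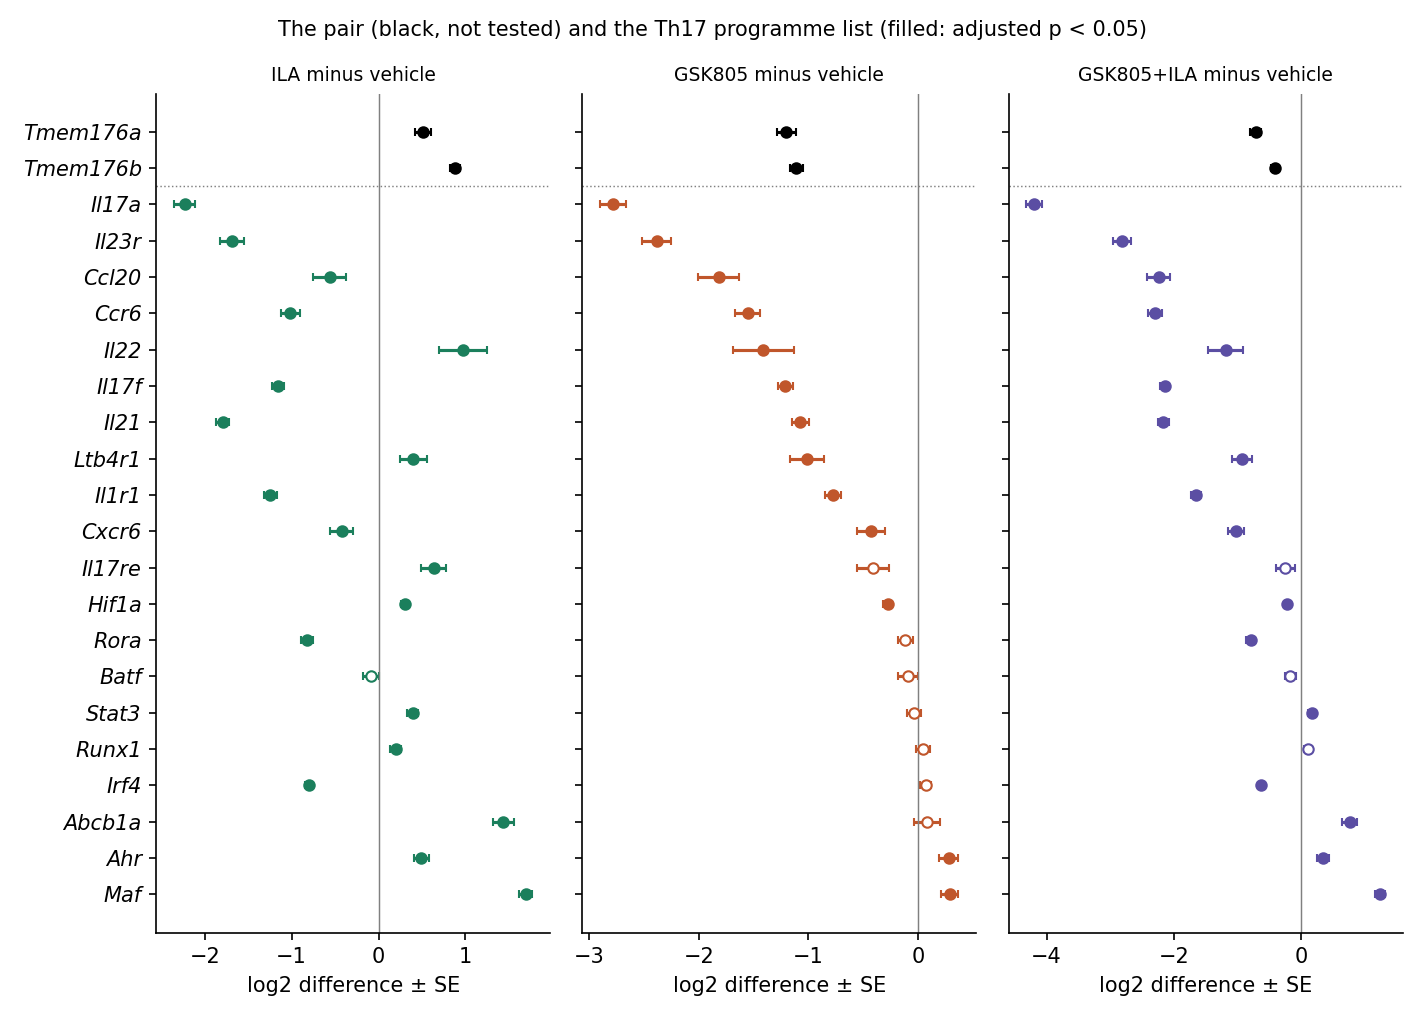
Differences from vehicle in log2(FPKM + 1), with SE, for ILA, GSK805 and both compounds. The pair is in black above the dotted line and was not tested, and filled points below it mark genes of the Th17 list, shown except for 1, with a limma adjusted p under 0.05. With GSK805 both genes of the pair lie at -1.20 and -1.11.

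Other channel genes were read from a list. It held 35 genes for ion channels, transporters and their partners in the plasma membrane and endolysosomes of T cells, of which 34 passed the filter on low values. With ILA 22 rose and 2 fell (Piezo1 and Slc30a7), with a median log2 difference of 0.45, against 33.9% higher and 24% lower over all tested genes. With GSK805 16 rose and none fell, with a median of 0.23, against 15.7% higher and 7.08% lower, a share of falls at which few would be met among 34 genes. With both compounds 26 rose and 1 fell (Slc30a7), with a median of 0.45, against 31.8% higher and 20.3% lower. Centred on the median gene, the counts were 20 higher and 5 lower with ILA, and 23 and 4 with both.

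Of the 6 channel genes named by size of difference, Mcoln1, Tpcn1, Itpr3 and Tmem63a rose in all 3 comparisons. Mcoln1, the gene of the lysosomal channel TRPML1, had means of 4.29 ± 0.353 FPKM with vehicle, 9.37 ± 0.221 with ILA, 6.26 ± 0.399 with GSK805 and 9.93 ± 0.427 with both (SD, n = 3), and adjusted p from 1.35e-07 to 5.35e-04. Tpcn1, which encodes a cation channel of endolysosomes, had differences of 0.92, 0.49 and 1.05 (limma adjusted p = 5.38e-07, 5.63e-04 and 2.56e-07). Itpr3, the gene of an inositol trisphosphate receptor that releases calcium from the endoplasmic reticulum, had differences of 1.39, 0.71 and 1.37 (adjusted p = 3.72e-08, 8.45e-05 and 5.58e-08). Tmem63a, which encodes a mechanically gated channel, had differences of 1.40, 0.42 and 1.42 (adjusted p = 1.71e-07, 0.00683 and 2.16e-07).

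Both other named genes rose with ILA and with both compounds and did not pass with GSK805. Hvcn1, the gene of a voltage-gated proton channel, stood at 2.48 ± 0.115 FPKM with vehicle, 10.2 ± 1.27 with ILA, 2.32 ± 0.497 with GSK805 and 6.75 ± 0.421 with both (SD, n = 3). Its adjusted p were 2e-07, 0.655 and 5.76e-06 by limma. Stim1, which encodes the calcium sensor of store-operated entry, had differences of 0.99, 0.10 and 0.57 (adjusted p = 2.61e-07, 0.34 and 3.05e-05).

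Of the Ms4a family, to which the pair is related, 12 of 17 listed genes were in the files and 3 passed the filter. All 3 rose with GSK805, but 3 genes are too few to set against the 15.7% higher and 7.08% lower over all genes. Ms4a4b, a T cell member, had means of 2.6 ± 0.435 FPKM with vehicle, 2.91 ± 0.196 with ILA, 6.24 ± 0.433 with GSK805 and 5.07 ± 0.253 with both (SD, n = 3). Its differences were 0.12, 1.01 and 0.76 (limma adjusted p = 0.259, 3.73e-05 and 3.08e-05), so it rose with GSK805, where the pair was lowest. Ms4a6b rose in all 3 comparisons by 0.32, 0.39 and 0.50 (adjusted p = 3.14e-04, 5.68e-04 and 1.46e-05). Ms4a6c rose by 1.07, 0.33 and 1.06 (adjusted p = 1.99e-07, 0.00687 and 2.94e-07). Near-identical members of this family can share reads, so how reads were split between them is uncertain.

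Most tested neighbours of the pair rose with ILA, and most did not pass with GSK805. Within 500 kb of the pair the annotation lists 58 other genes, of which 40 were in the files and 29 passed the filter. With ILA 23 rose and 1 (the pseudogene Zfp862-ps) fell, with a median log2 difference of 0.81, against 33.9% higher and 24% lower over all tested genes. With GSK805 9 rose, 2 fell and 18 did not pass, with a median of 0.23, against 15.7% higher and 7.08% lower over all tested genes. The 6.9% that fell are close to that lower share. With both compounds 20 rose and the same pseudogene fell, with a median of 0.72, against 31.8% higher and 20.3% lower. Some neighbours overlap each other, such as Gimap1os with Gimap1, 4833403J16Rik with Gm44226, and Gm28053 with Gimap genes. Reads there may count for more than 1 gene, so these counts are not of separate genes throughout.

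The Gimap cluster, GTPase genes of lymphocyte survival, lies on the Tmem176b side between the start of Gimap8 at position 48647234 and the end of Gimap3 at 48770851. All 8 protein-coding Gimap genes rose with ILA and with both compounds, by 0.91 to 3.00 and by 1.14 to 3.01. Over all tested genes 33.9% and 31.8% were higher in these comparisons. With GSK805 7 rose and Gimap7 did not pass (limma adjusted p = 0.17), against 15.7% higher over all tested genes. Gimap3 had libraries at 47.9, 46.11 and 43.88 FPKM with vehicle and 196.1, 188.2 and 193 FPKM with ILA. With GSK805 they were at 87.94, 83.36 and 86.36 FPKM, and with both compounds at 215.8, 226.1 and 215.8 FPKM. The GSK805 libraries of Gimap3 were all above the vehicle libraries, opposite to the pair, with a difference of 0.89 (SE 0.04, limma adjusted p = 9.66e-07). Gimap4 differed by 3.00, 0.88 and 3.01 (adjusted p = 4.95e-10, 2.12e-05 and 7.24e-10). For Gimap8, Gimap9, Gimap6, Gimap1 and Gimap5 the GSK805 differences were between 0.36 and 0.68.

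The noncoding genes Gimap1os, Gm44226 and 4833403J16Rik rose with ILA by 1.65, 1.23 and 1.07. Of these 3, Gimap1os passed with GSK805, by 0.43 (limma adjusted p = 4.56e-04), and Gm44226 did not (0.0664), although it did without vehicle replicate 3 (0.0143) or combined replicate 1 (0.039). The pseudogene Gm7887 passed in none of the comparisons, with differences from -0.04 to -0.06. Ccdc126 rose by 0.41 with ILA and by 0.61 with both compounds, and gave 0.18 with GSK805 (adjusted p = 0.00244, 1.72e-04 and 0.196). The 2 neighbours that fell with GSK805 were Tra2a, a splicing factor gene, and Gm43980, which lies within it on the other strand. Since strand handling is not given, both may rest on the same reads and need not be separate results. Tra2a fell by 0.18 (adjusted p = 0.00776) and Gm43980 by 0.28 (adjusted p = 0.0259), and the Gm43980 call was lost without vehicle replicate 3 (0.0916) or GSK805 replicate 2 (0.0893), in a range of 0.00995 to 0.0931. Both rose with ILA, by 0.25 and 0.59 (adjusted p = 2.07e-04 and 5.86e-05).

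**Figure D4:**
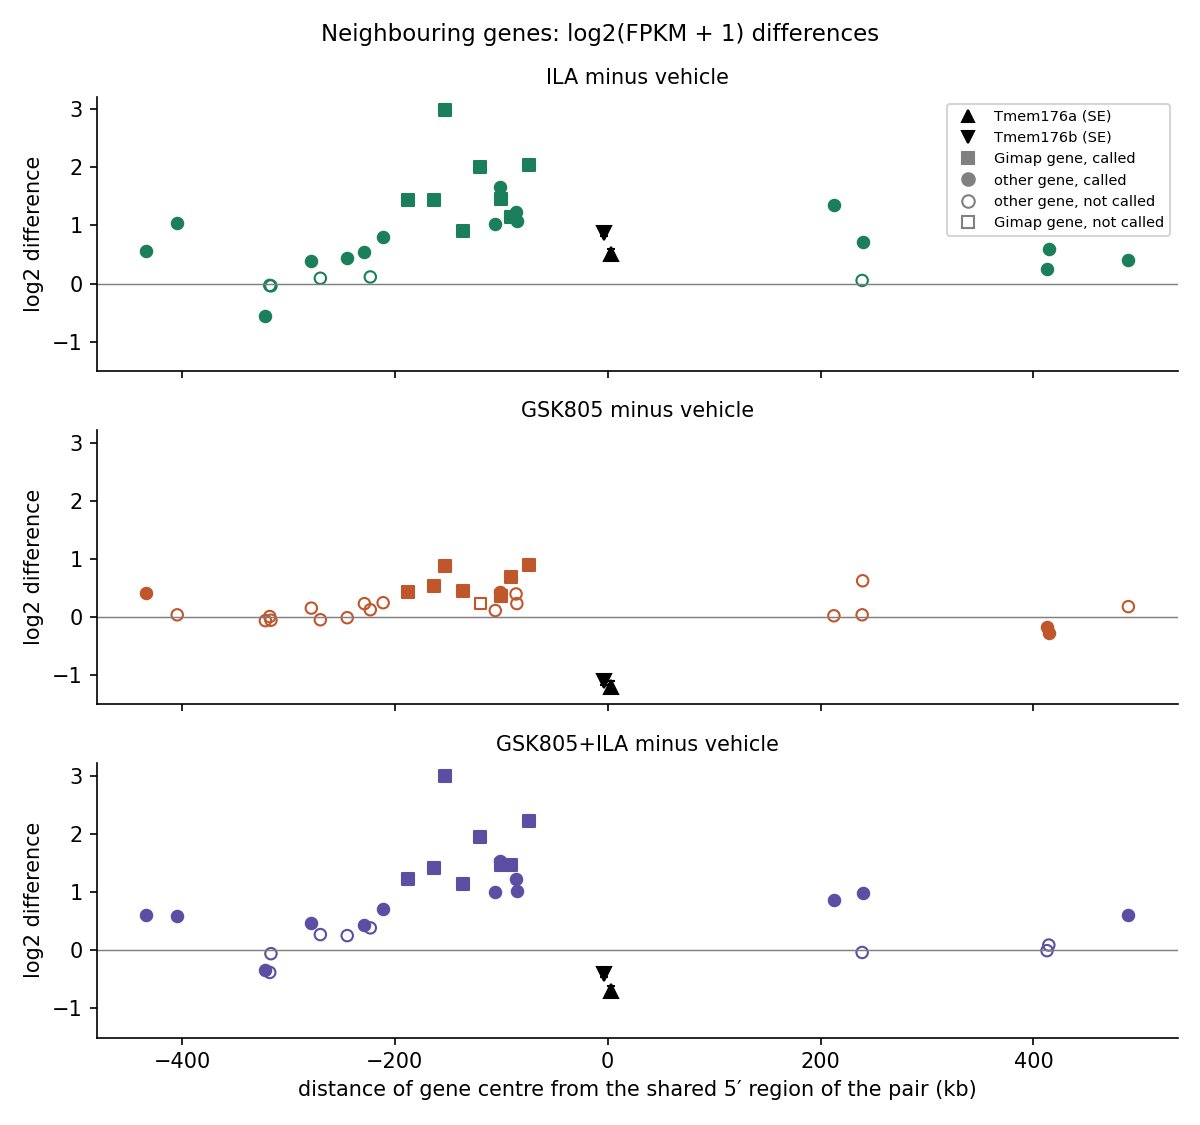
Differences from vehicle in log2(FPKM + 1) of the 29 tested neighbours (coloured; squares are Gimap genes, filled where the limma adjusted p is under 0.05) and of the pair (black, with SE), by distance in kb of the gene centre from the shared 5′ region. In the GSK805 panel the pair lies at -1.20 and -1.11, below every neighbour.

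A search among 7093 expressed and named genes for patterns like the mean of the pair found 17 with a Pearson correlation above 0.95 over the 12 libraries. The libraries fall into 4 groups that share treatment, so the correlation ranks patterns over the groups and gives no evidence of a link. The most similar was Atp6v0d2 (0.986), which encodes a subunit of the proton pump of endolysosomes. It had means of 40.9 ± 0.46 FPKM with vehicle, 54.1 ± 2.67 with ILA, 25.1 ± 1.44 with GSK805 and 34.1 ± 1.69 with both (SD, n = 3), the same order as the pair with smaller ratios. Sgtb (0.975), D16Ertd472e (0.974), Nr4a1 and Fosl2 (both 0.97), Bend4 (0.967), Gpr183 and Vps37b (both 0.964) followed. Nr4a1, an orphan nuclear receptor gene induced by T cell receptor signals, had means of 219 FPKM with vehicle, 260 with ILA, 128 with GSK805 and 163 with both. Gpr183, which encodes the oxysterol receptor EBI2, had means of 2.66, 6.20, 1.03 and 2.36 FPKM in that order of groups. Vps37b, a gene of the endosomal sorting machinery, had means of 34.4, 65.4, 17.8 and 31.1 FPKM.

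The opposite pattern was closest in Foxp1 (-0.976), Nadk (-0.974), Nfatc1 (-0.97) and Dgkd (-0.969). Foxp1, which encodes a transcription factor of T cell quiescence, had means of 38.2 FPKM with vehicle, 30.3 with ILA, 49.7 with GSK805 and 40.4 with both. Within groups the values were lower and differed in sign: the correlation of deviations from the group means with those of the pair ran from -0.156 for D16Ertd472e to 0.457 for Fosl2 among the 8 most similar genes, with 0.242 for Atp6v0d2. Among the 4 opposite genes it ran from -0.816 for Foxp1 to -0.337 for Nadk.

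**Figure D5:**
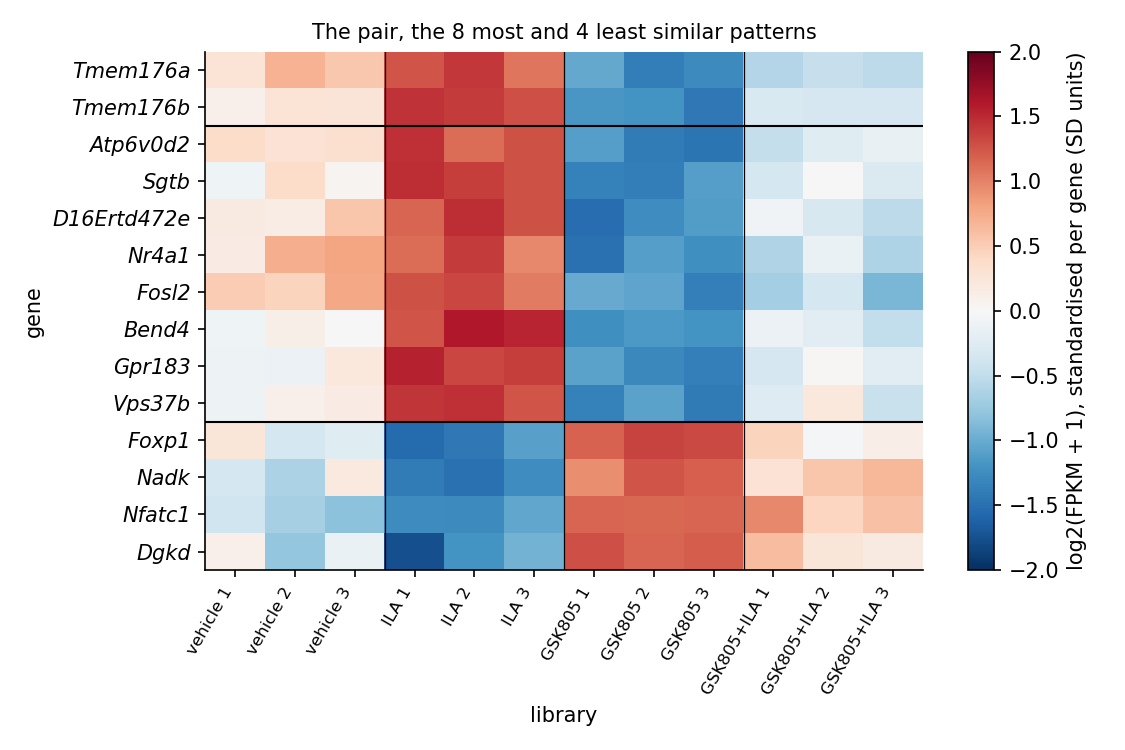
Log2(FPKM + 1) of the pair, the 8 genes with the most similar pattern and the 4 with the most opposite one, in each of the 12 libraries, standardised per gene in SD units (colour). Rows are genes and columns libraries, and the group means of the similar genes are highest with ILA and lowest with GSK805.

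Markers of CD4 T cells marked every library: all 7 passed the filter, and Cd3e was at 18.7 FPKM or more throughout. In bulk RNA, fewer cells of a type and less RNA per cell cannot be told apart. The summed level of these 7 markers was 451 to 473 FPKM with vehicle and 799 to 845 with ILA. With GSK805 it was 485 to 512, and with both compounds 752 to 792. The sum was thus highest with ILA, and with both compounds it lay below ILA and above vehicle. Its part in the differences of the pair was not tested.

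Dendritic and myeloid cells can also express the pair. Of 18 of their markers in the files, 11 stayed below 1 FPKM in all libraries, and the summed level was 22.2 to 27 FPKM with vehicle, 26.9 to 28.3 with ILA, 20.2 to 24.1 with GSK805 and 19.5 to 22.7 with both. The vehicle range overlapped those of all other groups, and the ranges with GSK805 and with both compounds overlapped each other. The ILA range lay above the ranges with GSK805 and with both compounds. The defining genes Flt3, Clec9a, Siglech and Adgre1 reached at most 0.0522, 0.0163, 0.0533 and 0.0711 FPKM, and Itgax 0.422 FPKM. Other markers of the list were higher: Csf1r ran from 1.96 to 3.82 FPKM, Cd68 from 2.87 to 9.36 FPKM and Cd74 from 6.06 to 11.2 FPKM. H2-Ab1 reached 3.07 FPKM, H2-Eb1 2.23 FPKM, Tyrobp 1.51 FPKM and Xcr1 1.11 FPKM. Of the 5 that passed the filter, 1 rose and 2 fell with ILA, against 33.9% higher and 24% lower over all tested genes. With both compounds 1 rose and 3 fell, against 31.8% and 20.3%, and none passed with GSK805. The 1 that rose was Cd68, by 1.08 with ILA (limma adjusted p = 2.11e-05) and 0.90 with both (1.06e-04), with 0.06 for GSK805 (0.772). With ILA Csf1r (-0.43, adjusted p = 0.00333) and H2-Eb1 (-0.54, 0.029) fell. With both compounds Cd74 (-0.52), H2-Ab1 (-0.77) and H2-Eb1 (-0.66) fell. The part of these cells in the results was not tested. Between 1 and 2 of the 18 markers were at 0 in a whole group, and Cd74 or Cd68 led the sum.

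For gamma delta T cells and type 3 innate lymphoid cells, 7 of the 9 markers in the files stayed at or below 0.957 FPKM, Trdc and Trgv2 among them. Their sum was 160 to 165 FPKM with vehicle, 371 to 388 with ILA, 200 to 205 with GSK805 and 338 to 373 with both, nearly all from Tcf7 and Kit, of which Tcf7 is also a T cell gene. B cell markers summed to 1.62 to 2.88 FPKM over all libraries, and CD8 T and NK cell markers to 4.21 to 5.58 with vehicle, 1.5 to 2.12 with ILA, 4.08 to 4.77 with GSK805 and 2 to 2.16 with both. The share of all FPKM taken by ribosomal protein genes was 13.4% to 14.2% with vehicle, 13.6% to 14% with ILA, 11.4% to 11.7% with GSK805 and 12.2% to 12.9% with both. The part of these measures in the results was not tested.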

How the data were processed

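RNA from 12 mouse Th17 libraries, 3 in each of 4 groups taken from the sample labels, was measured by the authors and deposited as FPKM per gene. The submitters' processing notes name FastQC 0.11.2, Bowtie and the build mm10. For the read counter, its annotation and its use of strand the sources used here give nothing. With GENCODE vM21 exon lengths, 98.613% to 98.759% of nonzero values came within 0.1 of whole reads at 1 depth per library. Gene positions are from GENCODE and start-site windows from RefSeq, both on GRCm38.

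FPKM were transformed to log2 with a pseudocount of 1, and the 13511 genes whose mean reached 1 FPKM in any group entered a limma fit (version 3.58.1, R 4.3.3) of the 12 libraries, with 1 mean per group and trended, robust moderation. Benjamini-Hochberg adjustment ran over all genes, and an adjusted p below 0.05 was called. The fit was tested on simulated data. No p is given for Tmem176a or Tmem176b, whose levels in these groups were known when they were chosen.

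The members, lists and markers were chosen with earlier results of these data known. Genes named are, by rule, up to 6 called genes with the largest difference in the Th17 and channel lists, Ms4a genes and neighbours whose mean reached 5 FPKM in any group, and the 8 most and 4 least similar patterns. Other genes were named after their values were seen, and 1 gene that met the rule is not reported here. Alternatives were quantile normalization, median centring, a pseudocount of 0.1, no filter, a filter at 5 FPKM, only the groups compared, a replicate block, leaving out each library, limma without trend and robust moderation, and voom on the recovered reads. On average over well-covered genes, libraries of a group differed from each other by more than counting error. With both compounds the pair varied by less: 1.27% against 4.22% from counting in Tmem176b, and 3.72% against 4.18% in Tmem176a. Intervals of counting cover counting error only. Plots and tables came from matplotlib 3.10.9, pandas 2.3.3 and numpy 2.4.6 under Python 3.11.15.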

Additional observations from a re-analysis of the deposited data

Results flagged for a closer look

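The interaction of ILA and GSK805, the ILA difference under GSK805 minus the ILA difference without it, was called in 1871 of 13511 genes (13.8%). Among the 29 genes named by rule from the lists it was called in 17 by limma, with adjusted p from 1.92e-04 to 0.046. The rule took Th17 and channel genes for large differences in these same data, and all for higher levels. Several of the 17 lie in the Gimap cluster, so this count cannot be set against the 13.8%. In the Th17 programme 8 of 21 genes were called. The interaction was 0.81 for Il17a, 1.25 for Il23r and 0.71 for Il21, whose fall with ILA was smaller under GSK805. Il23r was near the floor there, with means of 0.751 FPKM with GSK805 and 0.295 FPKM with both compounds. The scale of log2(FPKM + 1) understates a fall at such levels, so the size of its interaction is overstated. It was -0.74 for Maf. Of Th17 list genes named outside the rule it was called in Hif1a (-0.24, adjusted p = 0.0236) and Abcb1a (-0.75, adjusted p = 0.0147).

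Among channel genes the interaction was called in 10 of 34, all negative, against 13.8% called over all tested genes. The split of those calls by direction was not counted, so the shared sign cannot be set against all genes. It was -0.72 for Itpr3, -0.52 for Stim1, -0.38 for Mcoln1 and -0.36 for Tpcn1. Among the Ms4a genes it was -0.34 for Ms4a6c.

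Of the 29 tested neighbours 10 were called, again all negative, against the same 13.8% over all tested genes without a count by direction. The value was -0.87 for Gimap4, -0.70 for Gimap3, -0.64 for Gimap8, -0.55 for Gimap9, -0.55 for Gimap1os, -0.36 for Gimap1, -0.36 for Gimap5 and -0.22 for Gimap6. For comparison, without a test, the pair itself gave -0.02 (SE 0.13) for Tmem176a and -0.17 (SE 0.08) for Tmem176b. The median interaction over all tested genes was -0.05. No cause of these interactions was tested.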

How the results depend on the processing

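All 12 differences of the pair kept their direction in 238 recomputed values, apart from the near-zero interaction of Tmem176a, which ran from -0.09 to 0.06 when single libraries were left out and stayed in that range in all other settings, above 0 in some, and 225 of the values stayed within the spread between replicates. Median centring gave 0.38 for ILA and -0.85 for both compounds against vehicle in Tmem176a. In Tmem176b it gave 0.74 for ILA, -1.19 for GSK805, -0.54 for both and -0.095 for the interaction. A pseudocount of 0.1 and voom on recovered reads gave -1.35 and -1.36 for GSK805 in Tmem176a, and -1.22 and -1.22 in Tmem176b, where both compounds against GSK805 came to 0.79 by either. By voom both compounds against ILA came to -1.36 in Tmem176b. These settings undo the compression of low values by a pseudocount of 1. Without single libraries the ILA difference ran from 0.43 to 0.58 in Tmem176a and from 0.84 to 0.91 in Tmem176b, and the GSK805 difference from -1.28 to -1.13 and from -1.15 to -1.05.

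Of 189 list counts 187 stayed within 1.5 times the reported count. A filter at 5 FPKM tests fewer neighbours and left 13 called with ILA and 11 with both compounds. Without single libraries the GSK805 count ran from 10 to 13 in the Th17 list, 11 to 16 in the channel list and 10 to 12 among neighbours. Of the 8 genes most like the pair, 3 were shared with a Spearman ranking and 0 with a ranking on deviations from group means. Over all genes 58.6%, 68.9% and 61.1% of the calls against vehicle were higher with ILA, GSK805 and both, against 40.9%, 40.3% and 40.2% after median centring and 46.3%, 55.9% and 47.8% after quantile normalization.

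Of 96 differences of named genes, 5 lost their call under some alternative and 2 gained one, and the direction of no called difference turned. Beyond those given above, Ccdc126 with ILA lost its call after quantile normalization (adjusted p = 0.059), and Tra2a with both compounds gained one after median centring (0.00466). Replicate numbers did not pair the samples, since same-numbered libraries had correlations of deviations between -0.0323 and 0.0386. With the replicate number as a block the differences of the pair were the same, -1.20 and -1.11 for GSK805, and the list counts changed by at most 1 gene, such as 12 Th17 genes in place of 13. Reads for the pair were fewest in the GSK805 cultures, where Tmem176b rests on 286 to 374 per library. Those libraries were not shallow, with 23.4, 21.7 and 21.0 M reads in genes.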
